A study of Homo sapiens with 12 samples.

Results

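The baseline transcriptome of HEK 293T cells was described from the 4 scramble control libraries of a series of 12. HEK 293T is an established line derived from human embryonic kidney that carries adenoviral sequence and the SV40 large T antigen. The libraries were taken by their labels, replicates 1 to 4 of the scramble hairpin, and no measured value entered that choice. The other 8 libraries come from the same line after SIDT2, a gene for a membrane protein of the lysosome, was knocked down, with 4 libraries for each of the hairpins shRNA-B and shRNA-D. All groups share the cell line, a high-glucose medium with serum, polybrene, lentiviral transduction and collection 72 h later. No untransduced library was analysed here, so the scramble libraries show cells that carry a lentiviral hairpin. The treatment text, which is the same for every library, speaks of lentivirus against SIDT2, and the scramble hairpin is named in the titles. RNA was selected by its poly(A) tail and sequenced, which makes the table a picture of mature messages and of other polyadenylated RNA.

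As background, the line was made from a whole embryonic kidney, an organ whose nephron progenitors, stroma, vessels, nerves and neighbouring adrenal tissue all could have supplied cells, and the line is known for carrying RNAs typical of neurons. Lineage genes are therefore described here as on or off, without assigning a cell of origin. Messages of the translation machinery, among them elongation factors and ribosomal proteins, are known to begin with a C and a run of pyrimidines, the 5′ terminal oligopyrimidine or TOP motif, through which growth signals control their translation. Paralogs are gene copies in 1 genome that often divide the work of a protein between tissues, so the copy in use tells much about a cell.

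The scramble libraries held 83650964 to 102644699 estimated counts, out of a range of 68737402 to 102644699 in all 12. Levels are given as CPM, the share of a library's counts, scaled by TMM, a method that equalises libraries by the bulk of their genes. Rankings by counts use plain CPM, in which longer transcripts draw more counts. Otherwise levels of different genes are compared as CPM per kilobase of transcript. Pairs of scramble libraries correlated across genes with Pearson's r of log2 CPM from 0.979 to 0.988, a description in which genes are not independent replicates. Counts of each pair differed beyond counting noise, with a chi-square per degree of freedom of 30.5 for libraries 2 and 3 and of 72.3 to 89.5 for the other pairs. SIDT2 itself stood at 21.6, 20.5, 18.3 and 19.7 CPM in scramble libraries 1 to 4, against 6.61, 8.27, 5.76 and 6.74 CPM with shRNA-B and 5.47, 7.19, 7.58 and 7.55 CPM with shRNA-D. All 8 knockdown libraries lay below every scramble library. RNASET2, which encodes a lysosomal ribonuclease, stood at 23, 33.7, 31.8 and 27 CPM in the scramble libraries. Libraries that carry the same replicate number in different groups deviated together, and results that touch this are given with the number. Nothing in the labels says what a number shares or that the libraries came from separate cultures, so every spread and p-value measures these libraries, which may differ technically.

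Among the gene lists measured, transcripts of the mitochondrial genome and of the translation machinery took the largest shares of the scramble counts. Genes of the mitochondrial genome held 6.44 ± 0.738% of all counts (SD, n = 4), the 79 cytosolic ribosomal protein genes 6.47 ± 0.450%, and 12 translation elongation factors 2.25 ± 0.0759%. The 10 most abundant genes together took 6.91 ± 0.690% of the counts, the 100 most abundant 20.2 ± 0.767% and the 1000 most abundant 49.6 ± 0.802%. Without mitochondrial transcripts, the share of the top 10 was 4.07% and that of the top 100 was 16.0%. The gene at rank 1000 stood at 175 CPM, so a few very abundant members stood over a long tail.

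Of the 30 genes with a symbol and the most counts (1 identifier without a symbol, at rank 22, is left out), 11 lie in the mitochondrial genome. MT-CO1, a catalytic subunit of cytochrome oxidase, held 11891, 12381, 15526 and 10572 CPM. The large mitochondrial ribosomal RNA MT-RNR2 held 7120.1, 12880.2, 17781 and 9885 CPM, so library 3 carried more than any other and library 1 the least. MT-CO3, another cytochrome oxidase subunit, held 5692, 3312, 4995 and 5230.1 CPM and was lowest in library 2, a different order from that of the ribosomal RNA. Per kilobase the leading mitochondrial transcripts were MT-CO1 at 8166 ± 1362, MT-RNR2 at 7644 ± 2927, MT-CO3 at 6132 ± 1324 and MT-CO2 at 6073 ± 838 CPM per kb (SD, n = 4).

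Among messages of nuclear genes, EEF1A1, the factor that brings aminoacyl-tRNA to the ribosome, took the largest share of the counts. It held 9026, 11152, 11282 and 9222 CPM in libraries 1 to 4, and libraries 2 and 3 lay above libraries 1 and 4. EEF2, the factor that moves the ribosome along the message, held 2963, 3638, 3285 and 3054 CPM. EEF1G, a subunit of the exchange factor for EEF1A1, held 2036, 2366, 2302 and 2096 CPM, but 99.9% of its 31-base words also occur in other annotated genes, so its count rests on how shared reads were divided. For EEF1A1 that share was 62.7%, while EEF2 shared none.

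Other abundant messages came from glycolysis, protein folding, the nucleolus and the cytoskeleton. ENO1, the glycolytic enolase, held 2382 ± 513 CPM and GAPDH 2359.7 ± 498 CPM (SD, n = 4). The HSP90 chaperones HSP90AA1 and HSP90AB1 held 2689.8 ± 196 and 2006 ± 126 CPM. NPM1, a nucleolar histone chaperone, held 2379.6 ± 329 CPM and PTMA, which encodes the small acidic protein prothymosin alpha, 1902 ± 351 CPM. The RNA-binding proteins HNRNPA1 and HNRNPA2B1, which take part in splicing, held 3087 ± 458 and 2007 ± 269 CPM. TUBA1B and TUBB, the alpha and beta tubulins with the most counts, held 1937 ± 105 and 1858 ± 70.8 CPM. The spread of the tubulins was small beside that of the glycolytic enzymes. Per kilobase, short ribosomal protein messages led the nuclear genes after EEF1A1 and the noncoding LINC01766, with RPL39 at 2808 ± 428 and RPL41 at 2435 ± 373 CPM per kb.

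**Figure D1:**
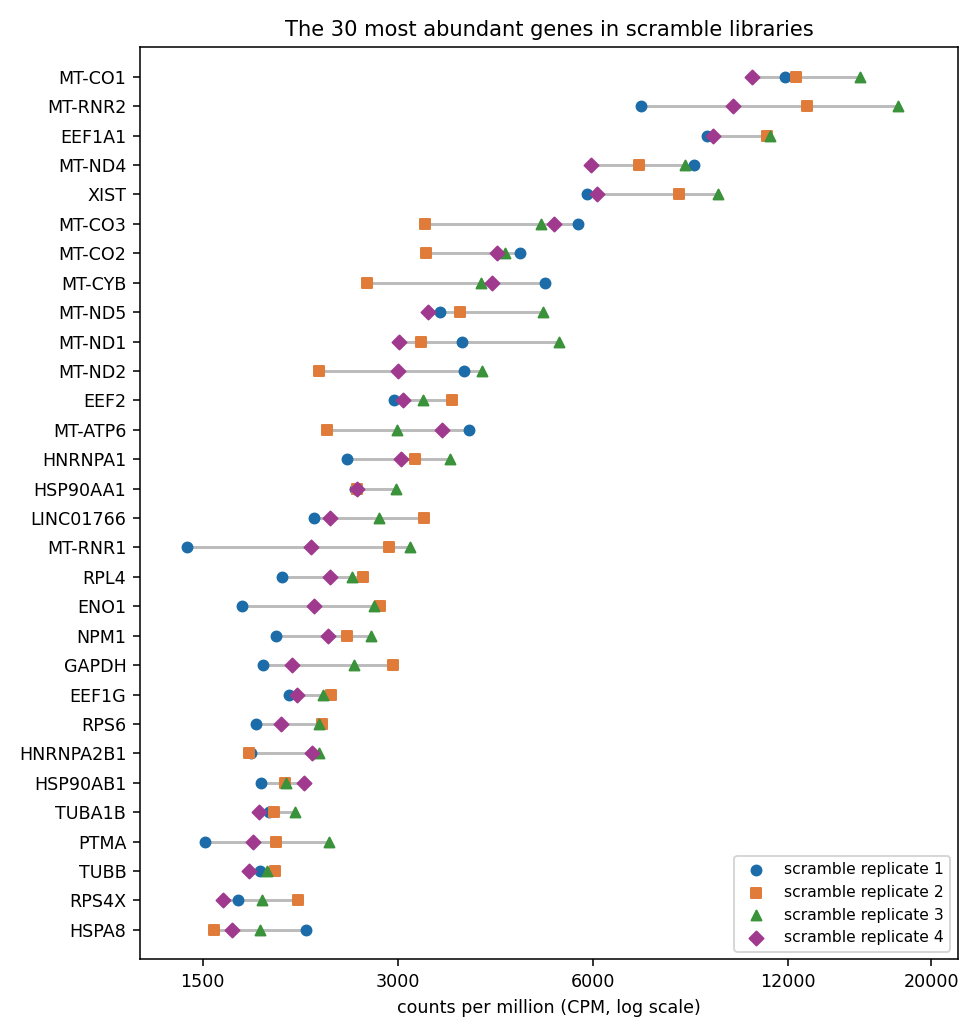
CPM on a log axis for the 30 genes with a symbol of highest mean in the scramble libraries, with a marker for each of the 4 libraries and a grey line from the lowest to the highest. MT-RNR2 spans 7120.1 to 17781 CPM, whereas TUBB stays between 1769 and 1937 CPM.

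Because translation genes filled so much of the list, the starts of the abundant messages were read from RefSeq (GRCh38.p14). Each line gives the 10 bases before the annotated transcription start and the 20 bases from it, 5′ to 3′ on the gene's strand, with the run of C and T that opens the transcript in capitals where it begins with C. The first lines show abundant messages with such a run, and the last 3 show abundant messages without it.
EEF1A1: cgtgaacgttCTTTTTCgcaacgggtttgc
EEF2: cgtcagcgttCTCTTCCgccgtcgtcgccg
RPS6: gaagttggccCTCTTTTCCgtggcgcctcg
RPS24: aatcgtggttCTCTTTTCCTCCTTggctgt
NPM1: agcctgcgtcCTTTCCCTggtgtgattccg
GAPDH: gtgcatccctgtccggatgctgcgcctgcg
ENO1: cggcgcggacagtatctgtgggtacccgga
HSP90AA1: tttacggcccgactgcgcaggcgtgctcac
EEF1A1 lies at chr6:73521013-73521042 (minus strand), EEF2 at chr19:3985444-3985473 (minus strand) and RPS6 at chr9:19380217-19380246 (minus strand). RPS24 lies at chr10:78033853-78033882 (plus strand) and NPM1 at chr5:171387839-171387868 (plus strand). GAPDH lies at chr12:6535254-6535283 (plus strand), ENO1 at chr1:8878667-8878696 (minus strand) and HSP90AA1 at chr14:102139730-102139759 (minus strand).

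A start of C followed by at least 4 pyrimidines was found in 1104 of 27305 RefSeq promoters (4.04%). It was found in 11 of the 22 nuclear genes with an entry among those most abundant by CPM or per kilobase (50%), namely EEF1A1, EEF2, NPM1, PTMA, TUBB and 6 ribosomal protein genes. Over all cytosolic ribosomal protein genes it was found in 43 of the 63 with an entry (68.3%). The genes without it included EEF1G, GAPDH, ENO1, HSP90AA1 and RPL4. A match describes letters at an annotated start and not a mapped cap site, which poly(A) RNA counts per gene do not show.

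A pair of noncoding RNAs stood among these messages. XIST, the long nuclear RNA that coats a silenced X chromosome, held 5888, 8168, 9376 and 6093 CPM, more than any other noncoding RNA of nuclear origin. Its transcript is 19245 bases long, so its level per kilobase was only 384 ± 87.4 CPM per kb. Of the 31-base words of XIST 39.9% also occur in other annotated genes. LINC01766, a short RNA whose role is not well described, held 2226, 3293, 2809 and 2358 CPM over 362 bases, or 7379.7 ± 1336 CPM per kb, and none of its 31-base words occurs in another annotated gene. Both were lowest in library 1 and were higher in libraries 2 and 3 than in libraries 1 and 4. Taken over all genes of the type, long noncoding RNAs held 2.22 ± 0.0516% of the counts (SD, n = 4), and 1143 of 13853 were on.

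None of the 30 most abundant genes differed between scramble and either hairpin in edgeR's quasi-likelihood test (Benjamini-Hochberg adjusted p under 0.05 over all genes), nor by DESeq2 or in the fit with the replicate number as a block. At an unadjusted p under 0.05 that test counted 0 genes with shRNA-B and 1 with shRNA-D. Over all tested genes that test called 0.876% with shRNA-B and 0.269% with shRNA-D, and with the block 9.58% and 3.3%. The replicate number, tested in the 8 knockdown libraries alone, called 24 of the 30, where it called 39.8% of all tested genes and 58.1% of the 11228 genes with a symbol that averaged 5 CPM or more. Variation of the abundant genes with the number was thus called far more often than a change with SIDT2 knockdown.

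A gene was called on at 1 CPM or more in all 4 scramble libraries and off under 0.1 CPM in all 4. Of 85298 identifiers, 14943 were on, 55856 were off and 14499 lay between, and 29015 held no count in any scramble library. Of 19827 protein-coding genes, 12207 were on (61.6%) and 4212 were off (21.2%). The median protein-coding gene that was on stood at 10.3 CPM per kb. At this depth 3 counts correspond to 0.0284 to 0.0392 CPM in 1 library and to 0.00825 CPM over all 4, which is the most that a gene without counts could reach by counting error alone. Lists of lineage genes held 222 different genes, of which 71 were on, 84 lay between and 67 were off (10 of them without a count).

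Genes of the early kidney were on in about the same share as protein-coding genes in general. Of 20 genes of nephron progenitors and the ureteric bud, 12 were on, 6 lay between and 2 were off, a share of 60.0% against 61.6% of protein-coding genes. SIX2, a homeobox factor that maintains nephron progenitors, held 29.6, 30.2, 31.8 and 24.4 CPM. SALL1, a zinc-finger factor of the metanephric mesenchyme, held 37.7, 42.3, 41.2 and 37.2 CPM. The highest library exceeded the lowest 1.30-fold for SIX2 and 1.14-fold for SALL1, against a median of 1.34 over the genes with a symbol that were on. WT1, needed for kidney formation, held 6.07, 6.29, 6.81 and 6.36 CPM, and PAX2, a paired-box factor of the same tissue, 4.92, 3.28, 3.76 and 2.39 CPM. EYA1, a transcriptional coactivator of the early kidney, was less even, with 11.9, 17.1, 18.1 and 32.1 CPM and its highest value in library 4. The ureteric bud receptor RET held 4.9, 6.91, 6.38 and 2.99 CPM and its ligand GDNF 3.44, 2.6, 2.58 and 2.57 CPM. Receptor and ligand were thus both on, at low levels. PAX8, a factor of the developing tubule epithelium, was off, at 0.0268 ± 0.0302 CPM (SD, n = 4).

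Genes of the mature nephron were mostly not on. In the proximal tubule list 3 of 17 genes were on, in the list of loop, distal tubule and collecting duct 2 of 15, and in the podocyte list 5 of 10. With a floor of 2 CPM the counts of the last pair of lists were 0 and 3. LRP2, the endocytic receptor megalin, was on at 64.1, 51.5, 51.3 and 65.2 CPM, while CUBN, its partner cubilin, lay between at 0.697, 0.939, 0.842 and 0.759 CPM. The membrane peptidase MME was uneven, with 11.9, 6.16, 6.92 and 3.89 CPM and its highest value in library 1. The transporters SLC22A6 and SLC22A8 held no count, and SLC34A1, the phosphate transporter, held 0.00248 ± 0.00496 CPM. AQP2, the water channel of the collecting duct, held no count, and UMOD, which encodes uromodulin of the thick ascending limb, stood at 0.00248 ± 0.00496 CPM. AQP3, another water channel, was on at 2.6, 2.74, 2.89 and 1.93 CPM. Of the podocyte list, PODXL, a sialomucin of the podocyte surface, held 39.3, 51, 51.2 and 51.3 CPM, and CD2AP, an adaptor at the slit diaphragm, 46, 60.2, 78 and 57.1 CPM. NPHS1, which encodes nephrin of the slit diaphragm, held 0.171 ± 0.0741 CPM. PODXL and CD2AP were thus on while NPHS1 was not, and both are also expressed outside the kidney.

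**Figure D2:**
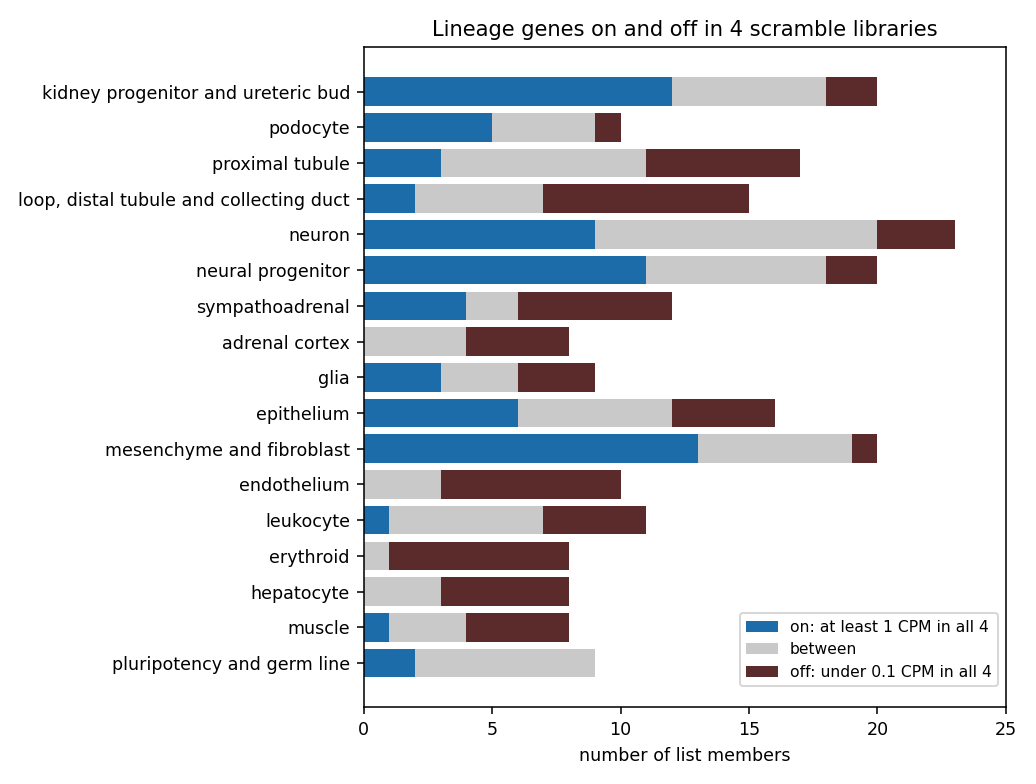
Members of 17 lineage lists by their state in the 4 scramble libraries: on (at least 1 CPM in all 4), between, or off (under 0.1 CPM in all 4), with the number of members on the horizontal axis. The lists with the most members on are mesenchyme (13 of 20), kidney progenitor (12 of 20) and neural progenitor (11 of 20), while adrenal cortex, endothelium, erythroid and hepatocyte have none on.

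Genes of neurons and neural progenitors were on in part. Of 23 neuronal genes 9 were on, 11 lay between and 3 were off, and of 20 neural progenitor genes 11 were on, 7 lay between and 2 were off. With a floor of 0.5 CPM 14 neuronal genes were on. UCHL1, a neuronal ubiquitin hydrolase, held 209, 188, 182 and 188 CPM, the highest level per kilobase on the neuronal list (184 ± 11.3 CPM per kb). The neurofilament light chain NEFL held 41.7, 87.1, 90 and 65.8 CPM, and INA, which encodes the filament protein internexin, 50, 40.8, 50.2 and 38 CPM. NCAM1, a neural adhesion molecule, held 60.2, 44.6, 45.5 and 29.7 CPM and ENO2, the neuronal enolase, 34.3, 62.5, 50.8 and 41 CPM. Filament and adhesion genes were thus on together with SYT1, the synaptic calcium sensor, at 13.9 ± 3.88 CPM and MAPT, which encodes tau, at 9.89 ± 1.13 CPM (SD, n = 4). By contrast STMN2, a regulator of microtubules in growing axons, was off at 0.0518 ± 0.0248 CPM, and ELAVL3 and ELAVL4, the neuronal members of the HuR family, were off at 0.063 ± 0.0196 and 0.00237 ± 0.00474 CPM. DCX, the microtubule protein doublecortin of migrating neurons, lay between, with 0.357, 0.111, 0.196 and 0 CPM.

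Of the neural progenitor list, ZIC2, a zinc-finger factor of the neural plate, held 106, 96.1, 106 and 108 CPM. PAX6, a paired-box factor of forebrain and eye, held 49.8, 45.7, 54.1 and 45.6 CPM, and POU3F2, a POU factor of neural progenitors, 35.2, 40.6, 47.9 and 42.7 CPM. The highest library exceeded the lowest 1.12-fold for ZIC2, 1.19-fold for PAX6 and 1.36-fold for POU3F2, against a median of 1.34 over the genes with a symbol that were on. SOX2, a factor of neural stem cells, held 11.8, 6.54, 8.05 and 10.8 CPM, whereas its relatives SOX1 and SOX3 lay between at 0.0517 ± 0.0569 and 0.282 ± 0.13 CPM. Of the sympathoadrenal list 4 of 12 genes were on, led by GATA2 at 30.5 ± 5.42 and ISL1 at 11.6 ± 3.22 CPM, while PHOX2A and DBH, defining genes of that lineage, held no count. No adrenal cortex gene of 8 was on, and NR5A1, its master regulator, stood at 0.122 ± 0.0433 CPM. Of 9 glial genes 3 were on (CNP, MBP and OLIG1), and SOX10 was off at 0.00744 ± 0.0149 CPM.

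Of 20 mesenchymal genes 13 were on and of 16 epithelial genes 6, where 61.6% of all protein-coding genes were on, and the difference between the lists was not tested. VIM, the filament vimentin, held 939.9, 845, 782 and 734 CPM, and CDH2, N-cadherin, 73, 77.5, 81.2 and 121 CPM, with its highest value in library 4. CDH1, E-cadherin, held only 4.51, 8.11, 7.52 and 3.72 CPM. Per kilobase CDH2 stood at 20.4 ± 5.16 and CDH1 at 1.22 ± 0.444 CPM per kb, and CDH2 was higher in each of the 4 libraries. The simple-epithelium keratins KRT8 and KRT18 were both on, and their partners KRT7 and KRT19 were off at 0.00248 ± 0.00496 and 0.00248 ± 0.00496 CPM. KRT18 held 52.5, 49.3, 40.4 and 37.1 CPM, while KRT8, with which it forms filaments, held 36, 36.5, 33.7 and 7.81 CPM and was low in library 4 alone. GRHL2, a factor that maintains epithelia, was off at 0.0497 ± 0.0416 CPM. The factors ZEB1, ZEB2, TWIST1 and SNAI2, known for repressing epithelial genes or promoting a mesenchymal state, were all on, with ZEB1 at 44 ± 9.65 and ZEB2 at 36.9 ± 4.33 CPM. Collagen genes were uneven: COL1A1 held 14 ± 2.17 CPM, while its chain partner COL1A2 held 0.117 ± 0.0369 CPM and did not reach 1 CPM in any library.

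Genes of unrelated lineages were mostly not on. None of 10 endothelial, 8 erythroid and 8 hepatocyte genes was on. Of the leukocyte list PTPRC, the common leukocyte antigen, stood at 0.0577 ± 0.0325 CPM. Of 8 muscle genes ACTN2, the sarcomeric actinin, was on at 12.1, 16.3, 17 and 15.7 CPM, and MYOG was off at 0.00557 ± 0.0065 CPM. Of 9 pluripotency and germ line genes LIN28B, a repressor of let-7 microRNA maturation, was on at 66.3, 105, 127 and 105 CPM and SALL4 at 2.03, 2.96, 1.86 and 2.12 CPM. POU5F1 and NANOG stood at 0.0735 ± 0.0204 and 0.117 ± 0.037 CPM (SD, n = 4). Summed levels of the endothelial list lay between 0.880 and 1.58 CPM and those of the leukocyte list between 2.31 and 3.41 CPM over the 4 libraries. In bulk RNA, a low level in every cell and a high level in a few cells cannot be told apart.

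The lineage genes that were on varied more over the 4 libraries than other genes that were on. The highest library exceeded the lowest by more than 2-fold in 20 of 71 lineage genes (28.2%), against 6.18% of the 13148 genes with a symbol that were on, and the median ratio was 1.59 against 1.34. NEFM and KRT8 exceeded 4-fold, with library 4 the highest for NEFM and the lowest for KRT8. Of the 140 lineage genes tested, shRNA-B changed 2 and shRNA-D none by edgeR (quasi-likelihood test, Benjamini-Hochberg adjusted p under 0.05), against 0.876% and 0.269% of all tested genes. At an unadjusted p under 0.05 in that test the counts were 14 and 1, and by DESeq2 they were 5 and 1. With the replicate number as a block the counts were 26 and 3, or 18.6% and 2.14%, against 9.58% and 3.3% of all tested genes. SALL1 was the kidney gene called with shRNA-B, at an adjusted p of 0.0400 and a log2 fold change of -0.44 ± 0.09 (SE), from 37.7, 42.3, 41.2 and 37.2 CPM in scramble to 26, 32.5, 29.1 and 29.3 CPM. This call held in 1 of the 12 fits that each left out a library (the one without shRNA-B replicate 2), with adjusted p from 0.0175 to 0.136, and was lost with no filter on low counts (edgeR adjusted p = 0.139). FBN1, which encodes the matrix protein fibrillin, was the other, with a log2 fold change of -0.87 ± 0.13 (SE) and an adjusted p of 0.00594, from 31.2, 27.1, 27.5 and 21.2 to 15.6, 14.8, 14.3 and 13.8 CPM, and it was called in all 12 such fits.

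Paralog use was compared in 40 families with 145 members as the share of each member in the family's sum of CPM per kb. A single member held at least 80% of the sum in 24 families and less in 16. The count of 24 fell to 22 with exon length merged over all transcripts and to 20 on plain CPM. At a threshold of 90% it was 16. Among cytochrome oxidase subunits with a ubiquitous and a tissue-specific copy, COX4I1, COX6A1 and COX7A2 held the whole sum, at 236 ± 5.73, 155 ± 16.7 and 94.5 ± 4.79 CPM, and COX4I2, COX6A2 and COX7A1 held no count. The ubiquitous copy was thus the one in use in each of these families. EEF1A1 held 98.5 ± 0.719% of its family against EEF1A2, the copy of neurons and muscle, although EEF1A2 was on at 201, 144, 132 and 61.6 CPM. The calcium pump of the endoplasmic reticulum used ATP2A2 (98.2 ± 0.255%). VIM held 99.9% of the class III filament family, next to DES, GFAP and PRPH. The RNA-binding ELAVL1 held 91.3 ± 0.935% of its family and ELAVL2 8.70%. CDH2 held 90.5 ± 4.08% of the classical cadherins and SMARCA4, a chromatin remodelling ATPase, 86.1 ± 1.15% of the pair with SMARCA2.

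In glycolysis several steps used 1 copy and others used more. PGK1, PGAM1, PKM, ALDOA and ENO1 each held at least 98.2% of their families, and the liver copy PKLR and the testis copy PGK2 were off. For ALDOA 97.9% of the 31-base words also occur in other annotated genes, so its count rests on how shared reads were divided. The first step was divided: HK1 held 56.0 ± 8.89% and HK2 43.9%, with HK1 higher per kilobase in 2 of 4 libraries. HK1 stood at 154, 192, 188 and 168 CPM and HK2 at 114, 319, 302 and 203 CPM, so HK1 was even and HK2 was not. Lactate dehydrogenase was divided as well, with LDHB at 61.9 ± 7.68% and LDHA at 37.8%. LDHB stood at 1122, 1332, 1347 and 1294 CPM and LDHA at 592, 1371, 1492 and 962 CPM, and LDHB led per kilobase in every library. All 3 phosphofructokinases were on, with PFKL leading in 3 of 4 libraries over PFKP, which held 31.3% of the sum. Among glucose transporters SLC2A1 held 83.4 ± 5.13% and SLC2A3, the copy of neurons, 14.8%.

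Other families were shared between close copies. The HSP90 pair was even, with HSP90AA1 at 50.9 ± 2.23% and HSP90AB1 at 49.1% (SD, n = 4), and HSP90AA1 led in 2 of 4 libraries. The nonmuscle myosins MYH9 and MYH10 held 48.0 ± 3.60% and 47.8%, and MYH9 led in 1 library, so the leader of neither pair was settled beyond its spread. The actins ACTB and ACTG1 held 63.1 ± 1.63% and 35.8% as counted, with ACTB ahead in all 4. The row of ACTG1 is identical to that of another identifier, so its count is an equal split. That other row is left out of the family sum, so the lead of ACTB (855 against 484 CPM per kb) is not settled. The B-type lamins LMNB1 and LMNB2 held 56.0 ± 2.85% and 35.6%. Of the D-type cyclins, CCND2 held 57.6 ± 7.58%. The neuronal tubulin TUBB3 was on at 9.47 ± 2.31 CPM beside TUBB, which held 64.9 ± 2.01% of the beta tubulins. TUBA1B held 84.2 ± 1.87% of the alpha tubulins. Of the 31-base words of TUBB3 90.6% were found in other genes, and of those of TUBA1B 93.4%. The counts of TUBB3 and TUBA1B thus rest on how shared reads were divided. MYC held 95.0 ± 2.83% of its family at 55.7, 222, 209 and 93 CPM, and MYCN was not on, at 0.276 ± 0.158 CPM. With exon length merged over all transcripts the leader changed in 5 families (hexokinases, phosphofructokinases, HSP90, nonmuscle myosins and TEAD factors), and on plain CPM in 3 (hexokinases, lamins and nonmuscle myosins).

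**Figure D3:**
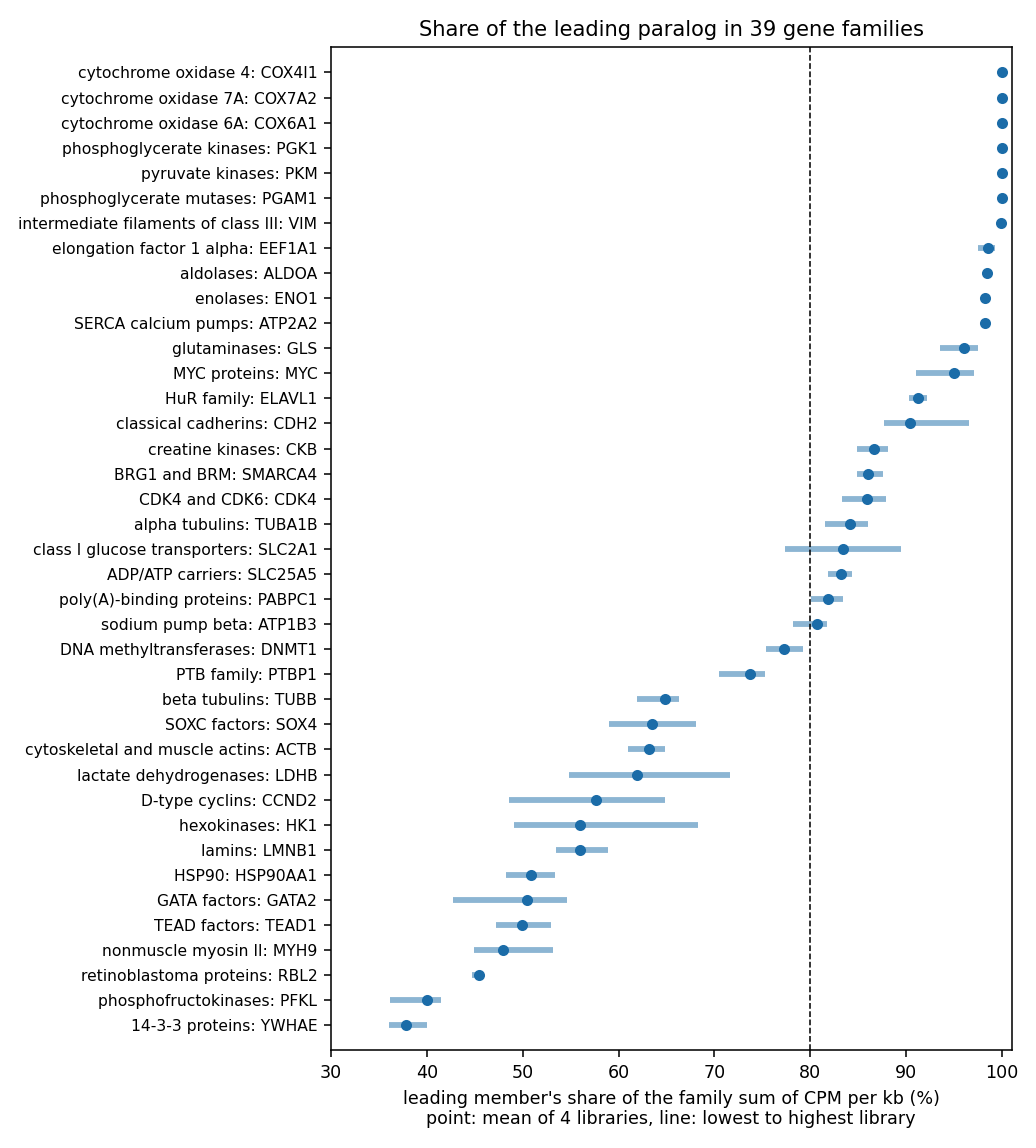
Share of the leading member in the sum of CPM per kb of each of 39 of the 40 paralog families, as the mean of the 4 scramble libraries (point) with the lowest and highest library (line), and the 80% threshold dashed. Of the families drawn, 23 lie at or above the threshold, and the hexokinase and lactate dehydrogenase lines are among the longest at 49.1 to 68.2% and 54.9 to 71.6%.

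Variation over the 4 scramble libraries was measured as the SD of log2(CPM + 0.5) in 11228 genes with a symbol that averaged 5 CPM or more. The median SD was 0.175, 10% of genes lay under 0.0753 and 10% over 0.339, 292 genes exceeded 0.5 and 22 exceeded 1. The median coefficient of variation was 12.3%, against 1.68% from counting error, so depth did not set the spread of a typical gene. The 200 most variable genes reached down to ST3GAL1 at 0.558, with SGCE just below at 0.556, and the 20 most variable down to ZNF462 at 1.03, with RSC1A1 just below at 1.01. In the 200, library 4 lay farthest from the other 3 in 109 genes, library 1 in 64, library 2 in 21 and library 3 in 6. Over all 11228 genes the counts were 3653, 3951, 1263 and 2361 in the same order of libraries, so library 4 was the odd one more often among the variable genes than among all.

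**Figure D4:**
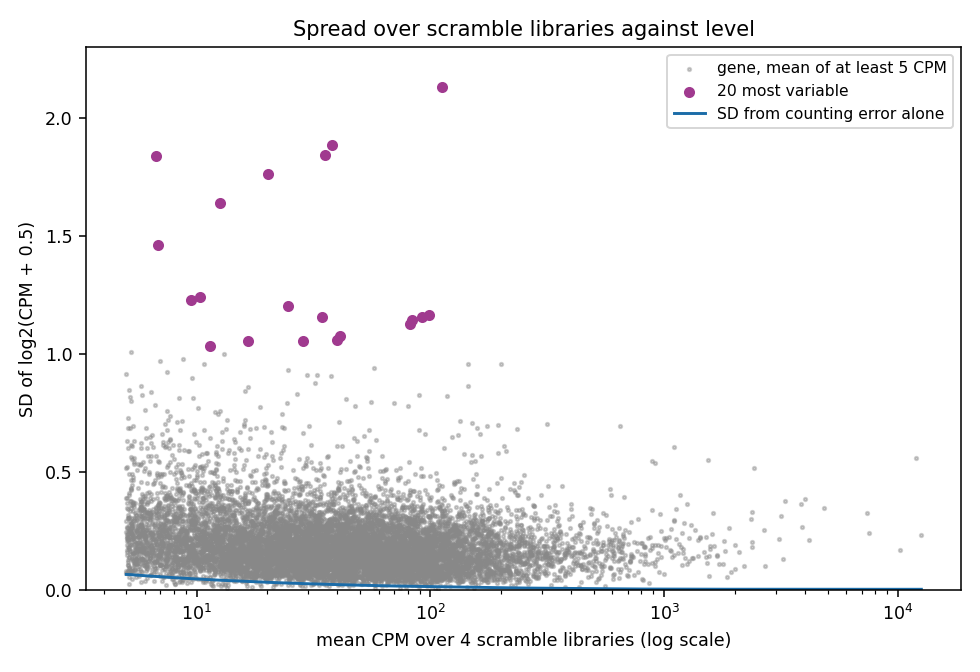
SD of log2(CPM + 0.5) over the 4 scramble libraries against mean CPM (log axis) for 11228 genes, with the 20 most variable in purple and the SD that counting error alone gives as a blue line. The most variable genes lie at 1.03 to 2.13 and at all levels from 6.68 to 112 CPM, far above the counting line.

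The first group of the 20 most variable genes was low in library 4 alone. DDR2, a collagen receptor kinase, held 101, 176, 166 and 7.29 CPM in libraries 1 to 4, the largest SD of all (2.13). BEX1, a small signalling adaptor of neural cells, held 50.7, 46.5, 51.1 and 3.16 CPM and FBXL16, an F-box protein, 23.8, 30.2, 24.7 and 1.83 CPM. In each of these library 4 lay well below the other 3, and the ratio of the highest to the lowest library was 24.2, 16.2 and 16.5. CRABP2, a retinoic acid carrier, held 45.2, 56.4, 51.1 and 11.1 CPM, and ZNF462, a zinc-finger protein, 15.8, 12.9, 14 and 3.04 CPM. KRT8, given above, belongs to the same group. DHFRP1, a pseudogene of dihydrofolate reductase, held 13, 23.1, 13.1 and 1.28 CPM, but all of its 31-base words occur in other genes, so its reads cannot be told from those of its parent.

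Another group was high in library 4 alone. NEFM, the medium neurofilament chain, held 4.22, 15.7, 17.7 and 105 CPM, and the highest library exceeded the lowest 24.9-fold. SOX9, a factor of chondrocytes and of the ureteric bud, held 17.3, 16, 17.8 and 86.3 CPM. MIR34AHG, the host transcript of the microRNA miR-34a, held 6.21, 3.14, 4.21 and 24.3 CPM. Libraries 1 to 3 were close for SOX9, whereas NEFM was also lower in library 1 than in libraries 2 and 3. NEFM and its filament partner NEFL did not share an order: NEFL held 41.7, 87.1, 90 and 65.8 CPM and was highest in library 3. KCNJ2, an inward-rectifier potassium channel chosen after its values were seen, held 1.39, 0.977, 0.445 and 10.3 CPM, with the same set of libraries low. Genes that reached 5 CPM in 1 scramble library and stayed under 0.5 CPM in another were rare, 4 in all, among them KCNJ2, SRP9P1 and FKBPL.

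A group of 6 was higher in libraries 2 and 3 than in libraries 1 and 4, and it included immediate-early and stress-induced genes. FOS, a subunit of the AP-1 transcription factor, held 9.42, 42.4, 38 and 8.78 CPM, and EGR1, a zinc-finger factor induced by serum and growth factors, 43.3, 145, 172 and 35.3 CPM. ATF3, a stress-induced factor, held 25, 147, 112 and 50.9 CPM. All 3 genes were lower in libraries 1 and 4 than in either of libraries 2 and 3, a split chosen after the values were seen. NDRG1 and BHLHE40, both known to be induced by low oxygen among other signals, held 22.8, 140.2, 101 and 62.9 and 36.2, 172, 123 and 36.8 CPM, and SNAI2, a factor of mesenchymal cells, 16.8, 58.3, 66.8 and 17.6 CPM. Members of the glycolysis list ran lowest in library 1: this held for 15 of 16, with a median ratio of the highest to the lowest library of 1.51 and the largest ratio, 2.79, for HK2. PGK1 held 546, 1168, 1182 and 749 CPM and showed libraries 2 and 3 high. The glycolysis list as a whole took 1.09% of the counts in library 1, 1.41% in library 3 and 1.33% in library 4, and most in library 2.

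The last 3 genes of the 20 belonged to none of these groups. IGF2, a fetal growth factor, held 24.7, 6.51, 7.39 and 2.61 CPM and was highest in library 1 and lowest in library 4. Of its 31-base words 97.9% also occur in other annotated genes, so its count rests on how shared reads were divided. CLU, the secreted chaperone clusterin, was likewise highest in library 1 and lowest in library 4, with 33.5, 14.4, 13 and 5.18 CPM. PANK4, a relative of the pantothenate kinases, held 1.65, 20.1, 2.36 and 3.3 CPM and was high in library 2 alone. Whether reads of PANK4 moved between identifiers was not tested.

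EGR1 is shown with its promoter because serum response factor is known to bind CArG boxes in front of immediate-early genes. The 250 bases before the annotated start, at chr5:138465229-138465478 (plus strand) in RefSeq (GRCh38.p14), are given 5′ to 3′ with CArG boxes in capitals.
EGR1: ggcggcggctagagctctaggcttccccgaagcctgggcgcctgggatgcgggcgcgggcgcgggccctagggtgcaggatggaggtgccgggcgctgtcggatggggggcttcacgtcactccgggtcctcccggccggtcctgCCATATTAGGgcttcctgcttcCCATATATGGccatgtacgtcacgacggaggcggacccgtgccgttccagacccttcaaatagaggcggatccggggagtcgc
The boxes began 105 and 83 bases before the start. A CArG box on either strand was found in 351 of 27305 RefSeq promoters (1.29%) of 300 bases around the start, in EGR1 alone among the 10 of the 20 most variable genes with an entry, and in 2 of 138 of the 200 most variable genes with an entry (1.45%). The share in the wider set was near that of all promoters. Boxes farther upstream than this window were not searched, and the match is a description of letters.

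**Figure D5:**
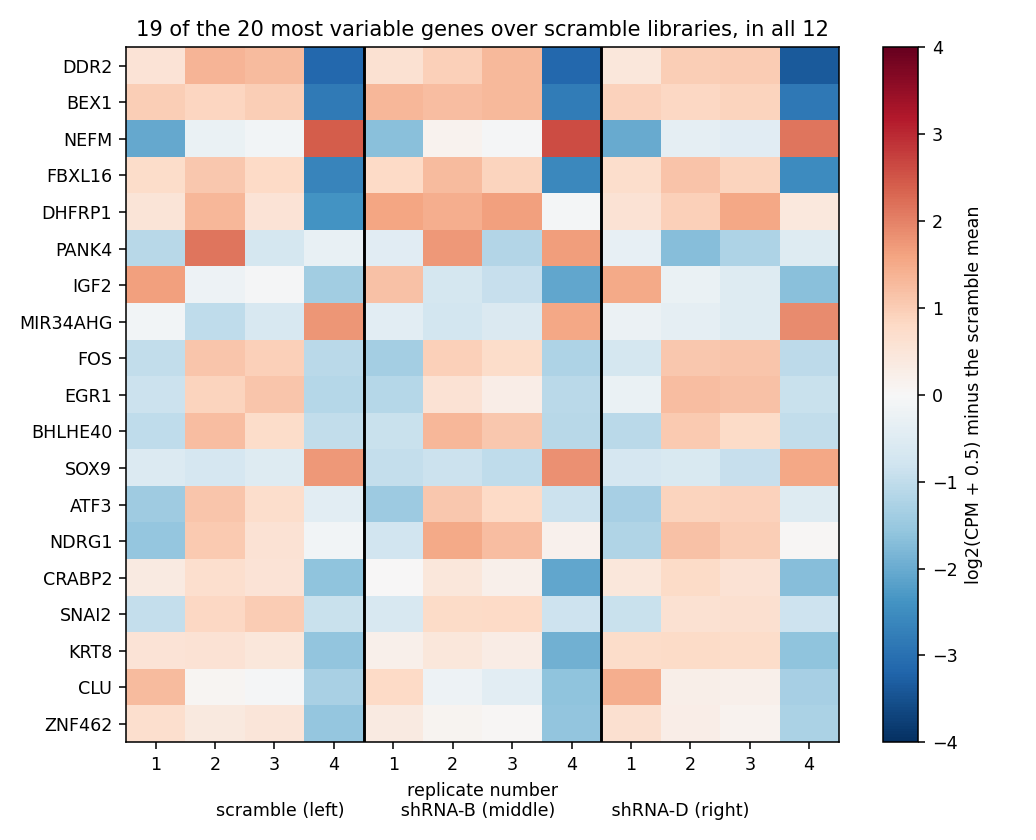
Heat map of log2(CPM + 0.5) minus the mean of the 4 scramble libraries, for 19 of the 20 genes that varied most over the scramble libraries (rows) in all 12 libraries (columns, by group and replicate number). For DDR2, BEX1 and FBXL16 number 4 is low in all 3 groups, for NEFM, SOX9 and MIR34AHG it is high, and for FOS, ATF3 and BHLHE40 numbers 2 and 3 are high.

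The 8 knockdown libraries had no part in choosing these genes and carry the same replicate numbers, and most of the genes varied with the number there. In edgeR's quasi-likelihood F-test of the replicate number in those libraries, with the hairpin as a term and adjusted p-values by Benjamini-Hochberg, 18 of the 20 and 188 of the 200 most variable genes (94%) were called, against 39.8% of all tested genes and 58.1% of genes with at least 5 CPM. DDR2 held 105, 134, 169 and 7.38 CPM with shRNA-B and 94.8, 136, 139.7 and 6.24 CPM with shRNA-D (adjusted p = 1.91e-11). NEFM held 5.64, 20.9, 18.2 and 119 CPM and then 4.36, 14.9, 13.9 and 86.5 CPM (adjusted p = 1.37e-12). Number 4 was thus lowest for DDR2 and highest for NEFM in all 3 groups. FOS held 7.19, 37.7, 32.6 and 7.88 CPM and then 11.7, 41.1, 41.9 and 9.13 CPM (adjusted p = 6.61e-07), with numbers 2 and 3 high again. EGR1 had the weakest call of the 18, at an adjusted p of 0.00105, which rose to 0.0661 without shRNA-B replicate 2, 0.0600 without shRNA-D replicate 2 and 0.0602 without the hairpin term.

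The exceptions were PANK4 and DHFRP1. PANK4 held 2.95, 15.1, 1.59 and 14.5 CPM with shRNA-B and 3.23, 0.931, 1.48 and 2.75 CPM with shRNA-D (adjusted p = 0.661), and DHFRP1 held 27.5, 25.2, 28.7 and 8.32 and 13.5, 17.5, 26.6 and 12 CPM (adjusted p = 0.251). PANK4 did not keep its scramble order, whereas number 4 was lowest for DHFRP1 in all 3 groups. The number lowest in scramble was also lowest under both hairpins in 82.0% of the 200 genes, against 44.5% of all 11228. The number highest in scramble was also highest under both hairpins in 63.5%, against 46.4%. Among the 20 most variable genes both counts were 13 (65.0%). What the replicate numbers share was not tested, and a number and a batch of culture, extraction or sequencing cannot be told apart here. Of the 16 glycolysis genes 15 were called for the number, and of the 79 ribosomal protein genes 73, against 58.1% of genes averaging 5 CPM or more. Ribosomal protein genes ran highest in library 2 in 69 of 79, so their order differed from that of the mitochondrial transcripts, which took 6.78, 5.65, 7.29 and 6.03% of the counts.

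Differences from knockdown among the variable genes depended on the fit. In the fit of group alone shRNA-B changed 1 of the 200 most variable genes and none of the 20, and shRNA-D none of either (edgeR, adjusted p under 0.05). At an unadjusted p under 0.05 the counts were 8 and 1 of the 200 and none of the 20. By DESeq2 they were 2 and 0 of the 200 and none of the 20. These genes were chosen for a spread that itself widens the error of the fit of group alone. Over all tested genes that edgeR fit called 0.876% with shRNA-B and 0.269% with shRNA-D. Of the 11228 genes with a symbol that averaged 5 CPM or more it called 210 and 66. With the replicate number as a block the counts in the 200 were 69 with shRNA-B and 14 with shRNA-D (34.5% and 7%), against 9.58% and 3.3% of all tested genes. The 200 were drawn from the 11228 genes with a symbol that averaged 5 CPM or more. Of these 11228 the block fit called 2019 with shRNA-B and 768 with shRNA-D. With the block 7 of the 20 were called with shRNA-B and none with shRNA-D. Among them IGF2 stood at 24.7, 6.51, 7.39 and 2.61 CPM in scramble and 17.7, 4.52, 3.78 and 1.42 CPM with shRNA-B, lower at each number (edgeR adjusted p with the block = 3.39e-04, without it 0.979). Without the block its log2 fold change was -0.58, and 0.34 when scramble replicate 1 was left out as well. These IGF2 counts rest on how shared reads were divided, as given above. NDRG1 was higher at each number, at 39.5, 194, 160.1 and 75.5 CPM with shRNA-B (edgeR adjusted p with the block = 5.39e-04, without it 0.961).

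At the other end, some genes hardly differed between the scramble libraries. SLC25A23, a mitochondrial carrier, held 108, 108, 108 and 109 CPM (SD of log2 values 0.00635), the smallest spread among genes averaging 50 CPM or more, and NELFCD, a subunit of a factor that pauses RNA polymerase, 106, 105, 105 and 105 CPM. DDB1, an adaptor of ubiquitin ligases, held 434, 439.9, 433 and 429 CPM and YWHAB, a 14-3-3 protein, 380.2, 378, 380.0 and 374 CPM. The 10 steadiest genes also included NUTF2, PSMA5, CYB5R3, SNX1, LSM5 and MRM2, with coefficients of variation of 0.443 to 1.07%, near their counting errors of 0.503 to 1.38%. Each hairpin was called for 1 of the 10 (10%; edgeR, adjusted p under 0.05), against 0.876% (shRNA-B) and 0.269% (shRNA-D) of all tested genes, but the 10 were chosen for a small spread in the scramble libraries that this test also uses, which favours calls. SLC25A23 was lower with shRNA-B, at 64.6, 82.4, 64.3 and 72.2 CPM (edgeR adjusted p = 0.00532), and NELFCD with shRNA-D, at 60, 69.1, 69.5 and 77.2 CPM (edgeR adjusted p = 0.0112). In both cases the knockdown libraries lay below all scramble libraries. The number was called for 1 of the 10, LSM5 (adjusted p = 0.0412, and from 0.0428 to 0.612 leaving out each knockdown library, with 3 of 8 fits calling it).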

How the data were processed

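Poly(A) RNA of 12 HEK 293T libraries was sequenced by the authors, and the 4 scramble libraries are described here. The authors deposited estimated counts per gene, fractional values in 1 table of 85298 Ensembl identifiers, made with fastp and kallisto, per the submitters' processing notes. Their versions, genome build and annotation are not stated in the labels or the table. Counts were rounded and scaled by TMM with edgeR 4.0.16 in R 4.3.3. GENCODE v29 gave lengths for 56339 identifiers (the median of the best-ranked principal transcripts, otherwise the longest) and the 31-base words shared between genes; a table of gene names gave symbols for 42160. The 28959 identifiers outside GENCODE v29 were not covered by that check of shared words. Where a symbol stood on more than 1 identifier, the lists used 1 row. Sequences and coordinates are from RefSeq GRCh38.p14 alone, with 1 annotated start per gene. Totals of 83650964 to 102644699 estimated counts made counting error smaller than the spread between libraries for most genes.

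Both hairpins were compared with scramble by edgeR's quasi-likelihood test on all 12 libraries (glmQLFit with robust shrinkage, filterByExpr, group alone, Benjamini-Hochberg adjustment), and the replicate number was tested in the 8 knockdown libraries. Same-numbered libraries deviated together (r from 0.140 to 0.619 over 12 pairs, against -0.365 to 0.280 over 36 other pairs), so a fit with the number as a block stands beside the counts it changes. The block lowered edgeR's common biological coefficient of variation from 25.0% to 12.1%. On simulated counts 69% of genes changed 2-fold were recovered for each hairpin and 85% for the number; of genes changed 1.5-fold 22% (shRNA-B), 29% (shRNA-D) and 71% (number) were. Of 15827 identifiers at 1 CPM or more, 619 (3.91%) had a row identical to another's, an equal split of shared reads.

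Lists, families and tests were chosen with earlier results of these data known. Named genes are the 30 most abundant by CPM, the 20 per kilobase, up to 4 on and 4 off members of each lineage list, 2 members of each family, the 20 most variable and the 10 steadiest, with SIDT2 and RNASET2; other list members were named after their values were seen. Some genes that fall under this rule are not reported here. Alternatives covered scaling, filters, DESeq2 1.42.0, lengths, thresholds and leaving out each library.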

Additional observations from a re-analysis of the deposited data

Results flagged for a closer look

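Each gene reported by the naming rule that was not off was checked for a single library far from the other 3 (a gap to the nearest library above the 95% critical value of Dixon's test for 4 values). Of 164 genes, 12 met it (7.32%), where chance gives about 1 in 20 for genes not chosen by their spread; 6 of the 12 are among the 20 chosen as most variable in the same libraries, so that rate does not apply to them. The odd library was number 4 in 7 of them, number 1 in 2, number 2 in 2 and number 3 in 1.

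Library 4 was high for NEFM (105 CPM in library 4, against 4.22 to 17.7 CPM in the other 3), SOX9 (86.3 CPM in library 4, against 16 to 17.8 CPM in the other 3), MIR34AHG (24.3 CPM in library 4, against 3.14 to 6.21 CPM in the other 3), ISL1 (16.4 CPM in library 4, against 9.65 to 10.4 CPM in the other 3) and CDH2 (121 CPM in library 4, against 73 to 81.2 CPM in the other 3). It was low for BEX1 (3.16 CPM in library 4, against 46.5 to 51.1 CPM in the other 3) and KRT8 (7.81 CPM in library 4, against 33.7 to 36.5 CPM in the other 3). All 7 genes, of which 5 are among the 20 chosen as most variable, were called for the replicate number in the knockdown libraries (edgeR's quasi-likelihood F-test, adjusted p under 0.05), against 39.8% of all tested genes and 58.1% of genes averaging 5 CPM or more.

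PODXL and PTBP1 were low in library 1: PODXL held 39.3 CPM in library 1, against 51 to 51.3 CPM in the other 3, and PTBP1, a splicing repressor, 438 CPM in library 1, against 529 to 532 CPM in the other 3. ZIC2 held 96.1 CPM in library 2, against 106 to 108 CPM in the other 3, and PANK4 20.1 CPM in library 2, against 1.65 to 3.3 CPM in the other 3. HSP90AA1 held 2983 CPM in library 3, against 2581 to 2599 CPM in the other 3.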

How the results depend on the processing

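Depth and shared reads limit these values: 3 counts are worth 0.0284 to 0.0392 CPM in a library, and members of families with shared sequence rest on how the authors' tool divided reads. Library 4 decides part of the list of variable genes: 9 of the 20 were also among the 20 most variable without it, 15 to 18 without another library, and 13 when ranked by the coefficient of variation in excess of counting error. The share of counts in the 10 and 100 most abundant genes was 4.07% and 16.0% without mitochondrial transcripts. Leaving out a library, counts of genes on (15044 to 15175 identifiers and 71 to 76 lineage genes) and of families led by 1 member (24 each time) moved little, as did the shares of the top 10 (6.59 to 7.09%) and top 100 (19.9 to 20.4%). Single lists moved with the floor: at 0.5 CPM 14 neuronal genes (against 9) and 1 erythroid gene (against 0) were on, and at 2 CPM 3 podocyte genes (against 5), none of the loop, distal tubule and collecting duct list (against 2), none of the leukocyte list (against 1) and 1 pluripotency and germ line gene (against 2). The leader of the nonmuscle myosins changed to MYH10 without scramble replicate 1. With the replicate block, shRNA-B called 2525 genes against 231 and shRNA-D 871 against 71; DESeq2's Wald test called 666 and 262. Leaving out a library gave 120 to 261 genes with shRNA-B, lowest at 120, 123, 130 and 147 without scramble 2, shRNA-B 1, scramble 3 and scramble 1. It gave 32 to 76 with shRNA-D, at 47, 42 and 36 without scramble 1, 2 and 3 and 32, 43 and 38 without shRNA-D 1, 2 and 3. For the replicate number, 3453 genes were called without the hairpin term against 9963 with it, and 6300 to 13003 leaving out a library, the lowest being 6300 and 6442 without shRNA-B 4 and shRNA-D 4. The hairpin effects of SALL1, FBN1, SLC25A23 and NELFCD kept their direction in each alternative, while that of IGF2 (log2 fold change -0.58, not called without the block) was 0.34 without scramble replicate 1. Of 13 tests of single genes over all alternatives, 168 values kept their side of the threshold, 23 lost it (SALL1, EGR1 and LSM5) and 2 passed it with the block (IGF2 and NDRG1). Of the values of single lists or families, 203 stayed (lists within 1.5-fold, families within their spread) and 53 moved.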

Other observations

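Genes near their limit of detection in some scramble libraries and clearly present in others were listed after their values were seen. FKBPL, a relative of the immunophilins, held 4.45, 5.1, 0.00434 and 0.171 CPM in scramble libraries 1 to 4. With shRNA-B it held 3.72, 3.36, 10.6 and 1.15 CPM and with shRNA-D 1.8, 0.554, 5.17 and 13.6 CPM, with no order shared between the groups (edgeR adjusted p for the replicate number = 0.669). Whether reads of FKBPL moved between identifiers was not tested. The chaperone list stood at 1.63 ± 0.0223% of the counts (SD, n = 4), the steadiest of the 6 abundance lists, although the chaperone HSPA5 differed 2.18-fold between its highest and lowest library. Nuclear RNA-binding proteins ran lowest in library 1 in 12 of 15 genes and highest in library 3 in 11 of 15. Cytoskeletal genes ran the other way, with 8 of 15 highest in library 1. The word ACGTG, the core bound by hypoxia-inducible factors, was found on either strand in 41 of 138 promoters of the 200 most variable genes with an entry (29.7%), against 5900 of 27305 RefSeq promoters (21.6%), and in 5 of 10 of the 20 most variable. Cytosolic ribosomal protein genes held it in 20 of 63 promoters (31.7%), so such a share was not particular to variable genes. These shares are a description without a test.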
